A study of Mus musculus with 15 samples.

Results

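Semaphorins are secreted or membrane-bound guidance cues, plexins are their signalling receptors, neuropilins are the co-receptors through which most class 3 semaphorins reach plexins, and collapsin response mediator proteins (CRMPs) are cytosolic proteins that link semaphorin signals to microtubules. These 4 families were taken as 34 genes by symbol alone: 7 class 3 semaphorins, 13 transmembrane or membrane-anchored semaphorins, 7 plexins, 2 neuropilins and 5 CRMPs. All 34 were found among the 26835 genes of the *Lhx6* table and 33 among the 25714 genes of the *Mtg8* table, in which *Sema3g* was not analysed here. *Plxna3* and *Plxnb3* lie on the X chromosome, whose genes the authors filtered out, and were not analysed here.

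Class 3 semaphorins are best known as repellents. Interneurons born in the medial ganglionic eminence (MGE) travel around the developing striatum on their way to the cortex, and the striatum releases SEMA3A and SEMA3F, which migrating interneurons read through neuropilins and A-type plexins. Interneurons that remain in the striatum are known to switch off neuropilins. The cells measured here had already reached the cortex.

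The study asked how the LIM-homeodomain factor LHX6 and the co-repressor MTG8, encoded by *Runx1t1*, act on the identity of these cells. YFP+ cells were sorted from the cortex of E14.5 mouse embryos (embryonic day 14.5) on a mixed C57BL6/CBA background, and every library came from a single embryo. There were 4 *Lhx6* controls (Lhx6+/+, with the Nkx2-1-Cre transgene and R26R-YFP fl/fl), 5 *Lhx6* mutants (Lhx6-/- with the same alleles), 3 *Mtg8* controls (Mtg8+/+ with the same alleles) and 3 libraries labelled *Mtg8* mutant (Mtg8-/- with the same alleles). The study's methods call the mutants littermates of the controls, but the labels give no litters. Library names share a stem across groups for *Lhx6* controls 1 and 2 with mutant 6 and for *Mtg8* controls 1 and 2 with labelled mutant 2 only, and whether a stem marks a litter is not given in the sources used here. All groups carried the Nkx2-1-Cre driver, which is active in MGE progenitors and marks their descendants with YFP. Per the study's methods the mutant alleles were germline, and so not limited to the sorted cells.

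Library depth ranged from 12218422 to 22053032 reads counted on genes. *Lhx6* was lower in all 5 *Lhx6* mutants (236 to 495 normalized counts) than in all 4 controls (5812 to 8441). *Runx1t1* was not lower in the libraries labelled *Mtg8* mutant (12249.8 to 13934) than in the *Mtg8* controls (7938 to 10265). The study's methods list a LacZ knock-in allele of *Mtg8*. Gene counts cannot tell which exons were read, so the label alone names the *Mtg8* mutant libraries. *Runx1t1* was higher in all 5 *Lhx6* mutants (12227 to 26527) than in all 4 *Lhx6* controls (6394 to 8945). Defining MGE markers were present throughout, with a summed level over 15 genes of 43903 to 54320.0 in *Lhx6* controls and 70287 to 74774 in *Mtg8* controls. In *Lhx6* mutants the sum was 32351 to 54669. At an adjusted p under 0.05 by limma, 3 of the 15 were lower in *Lhx6* mutants and 2 higher, beside 0.682% and 1.03% of all genes. The libraries also held markers of excitatory cortical neurons, summing over 11 genes to 15416 to 21329 in *Lhx6* controls and 5820.2 to 14304 in *Mtg8* controls. In the same 2 groups, 10 markers of cycling progenitors or radial glia summed to 10785 to 12940 and 7700 to 9066. Those of microglia or blood (8 genes) summed to 2887 to 28243 and 5261 to 13810. Those of Cajal-Retzius cells (5 genes) summed to 1612 to 2737 and 1601 to 3056. In bulk libraries such as these, fewer cells of a type and less RNA per cell cannot be told apart. All 4 *Lhx6* controls and *Lhx6* mutant 6 have library names without a date and the other 4 *Lhx6* mutants have dated names, and whether this marks a batch is not given in the sources used here. A fit with name style as a covariate therefore compares *Lhx6* mutant 6 with the controls.

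Of the 31 members tested in the *Lhx6* comparison, 3 were called at an adjusted p under 0.05 by limma, beside 1.71% of all 16727 genes tested. *Sema3a* fell, and *Nrp2* and *Plxnc1* rose. These are a secreted ligand, a co-receptor and a receptor of different ligand classes. The upstream DNA of these 3 genes is shown because they are the members that moved. The 250 bases before the RefSeq start on GRCm38.p6 are given 5′ to 3′ on the gene's strand, with every TAAT or its reverse complement ATTA in capitals, since TAAT is the core that homeodomain proteins as a class bind. They lie at chr5:13396534-13396783 on the plus strand for *Sema3a*, chr1:62703067-62703316 on the plus strand for *Nrp2* and chr10:94944846-94945095 on the minus strand for *Plxnc1*.
Sema3a: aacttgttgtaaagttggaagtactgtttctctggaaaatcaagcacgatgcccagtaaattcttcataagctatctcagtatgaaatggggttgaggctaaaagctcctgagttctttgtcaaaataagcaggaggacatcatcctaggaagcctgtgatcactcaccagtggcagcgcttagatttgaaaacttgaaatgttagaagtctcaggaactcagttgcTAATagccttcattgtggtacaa
Nrp2: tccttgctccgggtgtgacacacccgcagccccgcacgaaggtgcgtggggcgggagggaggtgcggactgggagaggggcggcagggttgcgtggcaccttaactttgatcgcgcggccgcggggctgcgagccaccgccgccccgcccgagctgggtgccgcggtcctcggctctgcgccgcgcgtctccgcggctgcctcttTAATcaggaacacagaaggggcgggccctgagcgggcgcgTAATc
Plxnc1: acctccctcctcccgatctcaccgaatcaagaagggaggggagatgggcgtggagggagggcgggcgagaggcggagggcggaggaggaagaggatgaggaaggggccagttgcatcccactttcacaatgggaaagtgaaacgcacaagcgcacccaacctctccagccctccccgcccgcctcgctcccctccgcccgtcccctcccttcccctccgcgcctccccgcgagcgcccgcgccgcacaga

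The *Sema3a* window held 1 match, which begins 23 bases before the start, the *Nrp2* window held 2, which begin 45 and 5 bases before it, and the *Plxnc1* window held 0. Of all 32851 RefSeq windows of this length, 54.9% held TAAT or ATTA. The longer TAATTA, which reads the same on both strands, was in none of the 3 windows and in 4.84% of all. GC content was 40.8% for *Sema3a*, 72.4% for *Nrp2* and 68.8% for *Plxnc1*, beside a median of 52.4% over all windows. A match is a stretch of letters and not a binding site, and no binding was measured here. The deposited gene models start further upstream than the RefSeq starts for *Sema3a* (chr5:13125414-13602565) and *Nrp2* (chr1:62703285-62818695), so that the *Sema3a* window and the end of the *Nrp2* window, with its match nearest the start, lie inside the gene model.

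The levels of the members in control libraries were set out first, per gene length, as TPM (a gene's reads per base of its length, scaled so that every library has the same total) computed from the recovered reads. The CRMPs held 93.7% ± 0.63 (SD, n = 4) of the summed member level in *Lhx6* controls and 94.4% ± 0.87 (SD, n = 3) in *Mtg8* controls. *Dpysl2*, which encodes CRMP2, the tubulin-binding CRMP, led at 1467 TPM ± 244 (SD, n = 4) in *Lhx6* controls. *Dpysl3* (296 TPM ± 26) and *Crmp1* (289 TPM ± 32) followed and did not differ beyond their spread. *Dpysl5* had 34.1 TPM ± 5.8 and *Plxna2* had 30.5 TPM ± 2.2, again within their spread of each other.

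Among receptors in *Lhx6* controls, *Plxna2*, a receptor for class 6 semaphorins and a co-receptor for class 3, was the highest plexin, and its range (27.8 to 33.3 TPM) lay above that of every other plexin. *Nrp1*, the co-receptor that binds SEMA3A, stood at 11.2 TPM ± 1.2 and *Nrp2*, the co-receptor that binds SEMA3F, at 2.94 TPM ± 0.41. *Plxnb1* (8.57 TPM ± 1.4), *Plxnb2* (8.09 TPM ± 1.5) and *Plxna1* (6.18 TPM ± 1.7) overlapped in their spread. *Plxna4*, the A-type plexin that works with neuropilin 1 for SEMA3A, had 4.38 TPM ± 0.64, *Plxnc1*, the receptor of SEMA7A, 2.54 TPM ± 0.49, and *Plxnd1*, the receptor of SEMA3E, 0.616 TPM ± 0.25.

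Among ligands in *Lhx6* controls, *Sema3a* was the highest class 3 gene at 9.60 TPM ± 2.1, and its lowest control (7.90 TPM) lay above the highest control of *Sema3c* (4.61 TPM). *Sema3f* followed at 1.96 TPM ± 0.33. *Sema3b*, *Sema3d*, *Sema3e* and *Sema3g* stood at 0.204, 0.0660, 0.155 and 0.0197 TPM and were the 4 lowest members of all. The transmembrane and anchored semaphorins lay between 1.69 TPM (*Sema4d*) and 7.60 TPM (*Sema6a*), and the ranges of neighbours in that order overlapped.

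**Figure D1:**
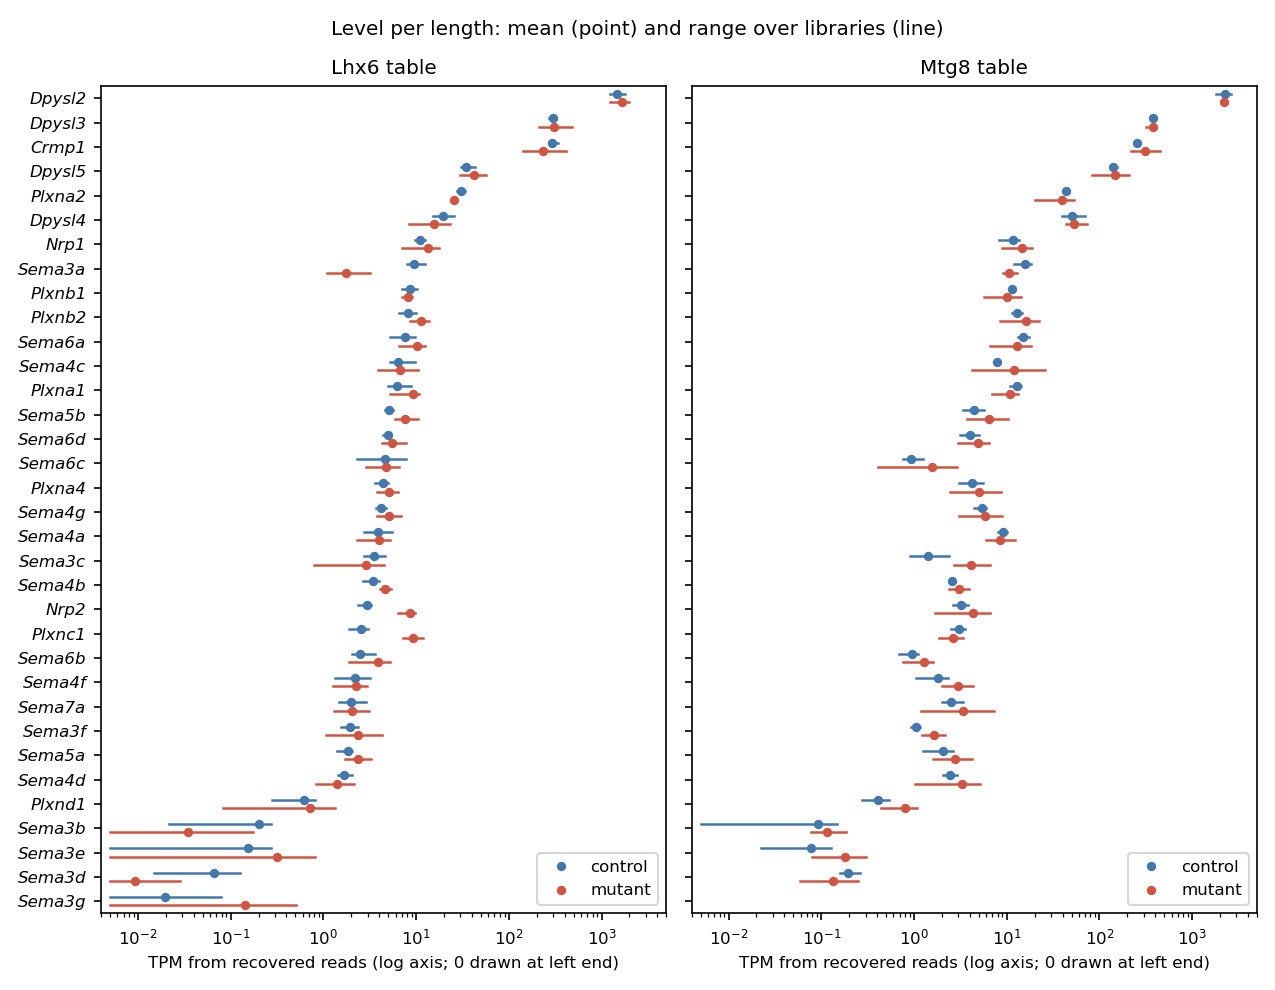
Level of each member per gene length (TPM from recovered reads, log axis) in the *Lhx6* table (left) and the *Mtg8* table (right), with points for group means, lines for the range over libraries, blue for control and red for mutant; a value of 0 is drawn at 0.005. The CRMPs *Dpysl2*, *Dpysl3* and *Crmp1* stand at the top in both tables, and the *Lhx6* mutant and control ranges are apart for *Sema3a*, *Nrp2*, *Plxnc1*, *Sema4b* and *Sema5b*, of which the first 3 were called.

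The order in *Mtg8* controls began alike, with *Dpysl2* (2259.8 TPM), *Dpysl3* (376 TPM), *Crmp1* (254 TPM) and *Dpysl5* (141 TPM) ahead of the rest. *Sema3a* was again the highest class 3 gene (15.7 TPM ± 3.2). *Nrp1* was at 11.6 TPM ± 3.0 and *Nrp2* at 3.19 TPM ± 0.59. The tables were normalized separately, so no difference between the control groups was tested.

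*Sema3a* was the member that fell in *Lhx6* mutants. Its product is a secreted repellent of axons and migrating neurons, and the gene (ENSMUSG00000028883.17) lies at chr5:13125414-13602565 on the plus strand, in a row with *Sema3d*, *Sema3e* and *Sema3c* that spans 5.35 Mb. The normalized counts were 1297, 885, 1076 and 915 in *Lhx6* controls 1 to 4. In *Lhx6* mutants 1, 2, 3, 5 and 6 they were 159.6, 181, 116, 197 and 350.4. Every mutant lay below every control, and mutant 6 was the highest of the mutants. The mutant mean was 19.3% of the control mean, a difference of -2.45 on the log2 scale (SE 0.27, limma adjusted p = 0.000308).

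Of the 31 tested members 1 fell, beside 0.682% of all genes, and 2 rose, beside 1.03% of all genes. The counts over all genes, 114 lower and 172 higher, moved by over 1.5 times in total when *Lhx6* control 1 (55 and 104), control 2 (67 and 107), control 4 (66 and 107) or mutant 6 (148 and 344) was omitted. For *Sema3a* the difference lay between -2.68 and -2.28 when any 1 library was omitted, past the threshold each time. With name style as a covariate, mutant 6 against the controls gave -1.55 and the call was lost (adjusted p = 0.100). In that fit 0 members were called, beside 0.341% of all genes.

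The neighbours of *Sema3a* on chromosome 5 were measured too. *Sema3c*, a secreted ligand of both neuropilins, had 248, 206, 151 and 183 normalized counts in controls and 53.2, 183, 243, 146 and 197 in mutants. The groups overlapped, with mutant 1 alone far below the rest, and the log2 difference was -0.40 (SE 0.38, adjusted p = 0.672). With any 1 library omitted it lay between -0.58 and -0.034. *Sema3e*, the ligand of PLXND1, ranged from 0 to 19.2 in controls and from 0 to 62.9 in mutants, and *Sema3d* was below the level filter in this comparison, with at most 8.29 normalized counts in any library.

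*Sema3f*, the other striatal repellent, had 75.0, 85.1, 94.0 and 65.8 normalized counts in *Lhx6* controls and 208, 76.8, 109, 81.4 and 44.6 in mutants. The mutants spread on both sides of the controls, and the log2 difference was 0.20 (SE 0.38, adjusted p = 0.838). *Sema3b* and *Sema3g*, also secreted ligands, did not reach a mean of 10 normalized counts. Of the 7 class 3 genes, 4 were thus tested and 1 was called, beside 1.71% of all genes tested.

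*Nrp2* rose in *Lhx6* mutants. It encodes neuropilin 2, and the gene (ENSMUSG00000025969.15) lies at chr1:62703285-62818695 on the plus strand. Controls 1 to 4 had 293, 225, 284 and 294 normalized counts. Mutants 1, 2, 3, 5 and 6 had 1067, 948, 720.0, 928 and 610.4. The lowest mutant, mutant 6, was above the highest control. The mutant mean was 3.12 times the control mean, with a log2 difference of 1.62 (SE 0.19, adjusted p = 0.000482). With any 1 library omitted it lay between 1.53 and 1.73 and was called each time. With name style as a covariate the difference was 1.16 and was not called (adjusted p = 0.181).

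*Nrp1* was not called beside it. Controls 1 to 4 had 929.6, 884, 832 and 788 normalized counts and mutants 1, 2, 3, 5 and 6 had 647, 915, 1323, 1302 and 1128. Mutant 1 lay below all controls and mutants 3, 5 and 6 above all of them, so the groups overlapped, and the log2 difference was 0.26 (SE 0.20, 95% confidence interval -0.17 to 0.70, adjusted p = 0.605). Per gene length, *Nrp2* made up 17.4% to 23.6% of the 2 neuropilins in the controls and 57.7%, 46.1%, 31.0%, 37.1% and 30.9% in mutants 1, 2, 3, 5 and 6. These shares did not overlap. *Nrp1* was still the higher of the pair in every library but mutant 1. That library also had the most mitochondrial reads, 4.87% beside 2.24% to 2.98% in the other *Lhx6* libraries. It had the fewest genes with a read (21150) among them, and the part of this in its values was not tested.

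*Plxnc1* rose as well. PLXNC1 is the receptor of the membrane-anchored SEMA7A, and the gene (ENSMUSG00000074785.5) lies at chr10:94790866-94944835 on the minus strand. The controls had 189, 127, 178 and 174 normalized counts. Mutants 1, 2, 3, 5 and 6 had 769.7, 815, 529, 611 and 482. All mutants were above all controls, and mutant 6 was again the nearest to them. The mutant mean was 3.84 times the control mean, with a log2 difference of 1.92 (SE 0.21, adjusted p = 0.000266). Its range over left-out libraries was 1.80 to 2.02, all called, and with name style as a covariate it was 1.54 (adjusted p = 0.0975).

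The ligand of PLXNC1 did not pass the test. *Sema7a* ranged from 39.0 to 72.8 normalized counts in controls and from 32.6 to 96.5 in mutants. None of the 3 called genes shares exon bases with another gene present in the *Lhx6* or *Mtg8* table, and genes absent from both were not checked. Small overlaps on the opposite strand were found for *Sema4c*, *Plxna1*, *Plxna4* and *Plxnb1*, and whether the counting used strand is not given in the sources used here.

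**Figure D2:**
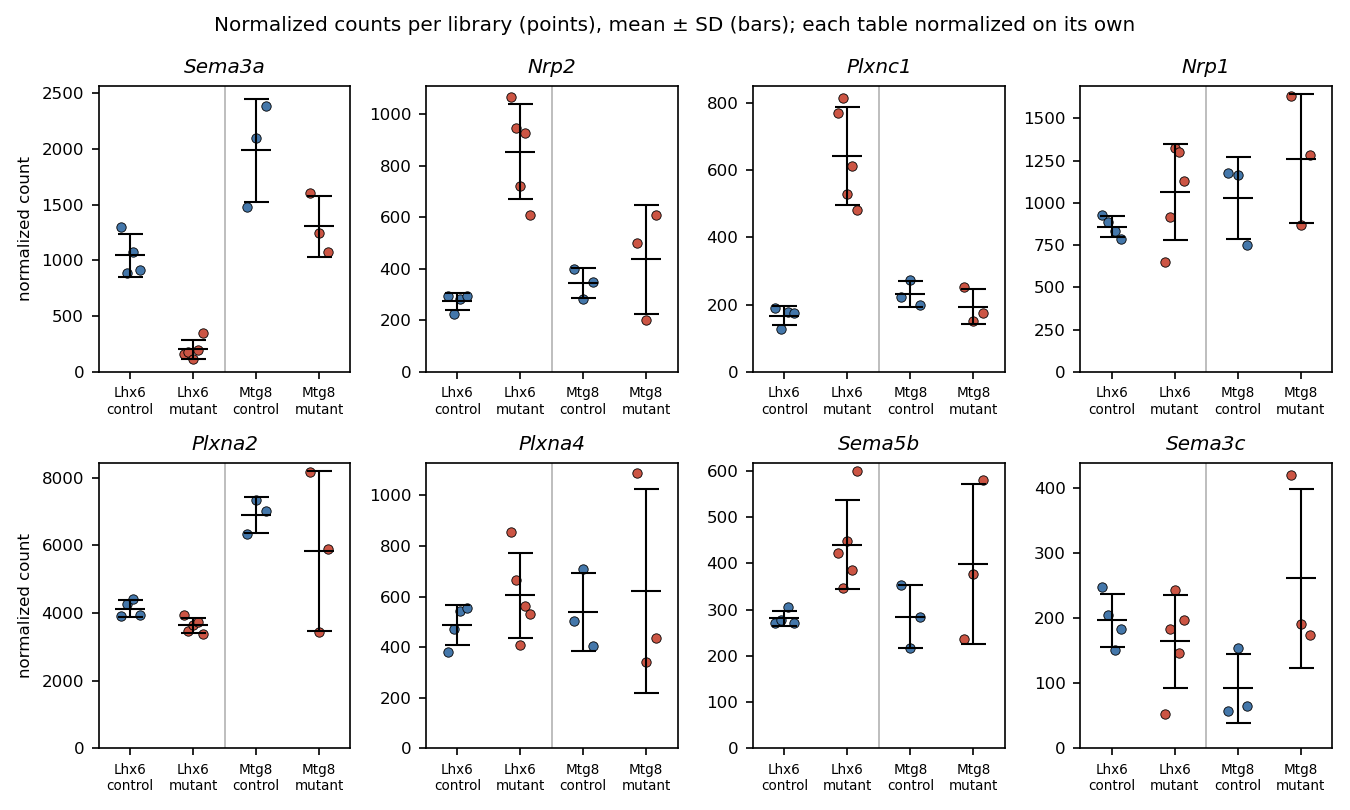
Normalized counts of 8 members in every library (points) with the mean and SD of each group (bars), from 0 on each axis, for *Lhx6* control (n = 4), *Lhx6* mutant (n = 5), *Mtg8* control (n = 3) and labelled *Mtg8* mutant (n = 3) libraries. In the *Lhx6* comparison the groups are apart for *Sema3a*, *Nrp2*, *Plxnc1* and *Sema5b* and overlap for *Nrp1* and *Plxna4*.

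The other plexins did not pass the test in *Lhx6* mutants. *Plxna4* had 382, 472, 544 and 553 normalized counts in controls and 855, 667, 409.8, 562 and 531 in mutants, which overlapped (log2 difference 0.28, SE 0.21, adjusted p = 0.598). *Plxna1*, an A-type plexin for class 3 and class 6 semaphorins, had 375, 404, 612 and 369 in controls and 893, 698, 741, 779 and 381 in mutants. Mutant 6 lay among the controls and the other mutants above them (log2 difference 0.64, SE 0.25, adjusted p = 0.293). Without mutant 6 the difference was 0.85 and was called (adjusted p = 0.0368).

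*Plxnb2*, a receptor of class 4 semaphorins, had 584, 531, 431 and 418 normalized counts in controls and 783, 641, 805, 536 and 829.6 in mutants. Only mutant 5 lay within the control range (log2 difference 0.54, SE 0.18, adjusted p = 0.195). *Plxna2* ranged from 3908 to 4408 in controls and from 3389 to 3930.0 in mutants, and *Plxnb1*, the SEMA4D receptor, from 554 to 748 and from 542 to 733. *Plxnd1* ranged from 15.4 to 46.1 and from 4.66 to 91.6. Of the 7 plexins, 1 was called, beside 1.71% of all genes, and the other 6 were not.

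Of the 13 transmembrane and anchored semaphorins, 0 were called by limma, 2 had an unadjusted p under 0.05, beside 12.7% of all genes, and DESeq2 on the recovered reads called 1, beside 4.53% of all genes. All 13 were tested, and the estimate was above 0 for 12 of them, with a median log2 difference of 0.18. This tally did not hold with name style as a covariate. There *Sema4c*, *Sema4f*, *Sema4g*, *Sema6a*, *Sema6b*, *Sema6c* and *Sema6d* were below 0. *Sema4a*, *Sema4b*, *Sema4d*, *Sema5a*, *Sema5b* and *Sema7a* were above 0. *Sema5b*, a transmembrane ligand with repellent activity on cortical axons, had 271, 278, 305 and 270.2 normalized counts in controls and 423, 347, 448, 386 and 599 in mutants. All mutants were above all controls (log2 difference 0.62, SE 0.18, adjusted p = 0.137), and DESeq2 called it (adjusted p = 0.0173). *Sema4b* had 171, 173, 136 and 123 in controls and 279.7, 192, 183, 243 and 201 in mutants, also without overlap (log2 difference 0.53, SE 0.21, adjusted p = 0.305).

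The remaining transmembrane genes overlapped between the groups. *Sema6a*, a ligand for A-type plexins, ranged from 378 to 667 normalized counts in controls and from 456 to 913 in mutants. *Sema6b*, of the same class, ranged from 64.4 to 111 and from 60.7 to 174. *Sema4d*, the PLXNB1 ligand, was the 1 gene of this group with an estimate below 0, at 83.6 to 126 in controls and 49.4 to 132 in mutants. *Sema4a*, *Sema4c*, *Sema4f*, *Sema4g*, *Sema5a*, *Sema6c* and *Sema6d* also overlapped, and none had an adjusted p under 0.05.

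The CRMPs were not called, with 0 of 5 past the adjusted threshold, beside 1.71% of all genes. At an unadjusted p under 0.05 there were 0, beside 12.7% of all genes, and DESeq2 called 0, beside 4.53%. *Dpysl2* ranged from 44752 to 61869 normalized counts in controls and from 53236 to 68697 in mutants. *Crmp1* was singled out after its values were seen, since leaving out 1 library changed its call. It had 17832, 15308, 15137 and 15822 in controls and 9449, 10109, 22472, 11227 and 13591 in mutants. Mutant 3 was the highest of all 9 libraries and the other mutants lay below all controls (log2 difference -0.33, SE 0.21, adjusted p = 0.532). Without mutant 3 the difference was -0.54 and passed the threshold (adjusted p = 0.0481). *Dpysl3*, *Dpysl4* and *Dpysl5*, which encode the other CRMPs, overlapped between the groups.

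Over all 31 tested members, 24 estimates were above 0 and 7 below, and the median log2 difference was 0.20, beside -0.037 over all genes tested. At an unadjusted p under 0.05 there were 7 members, 1 lower and 6 higher, beside 12.7% of all genes. Groups did not overlap for 1 member that was lower and 4 that were higher, beside 3.03% and 3.19% of all genes. The members' median was -0.00011 with name style as a covariate.

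**Figure D3:**
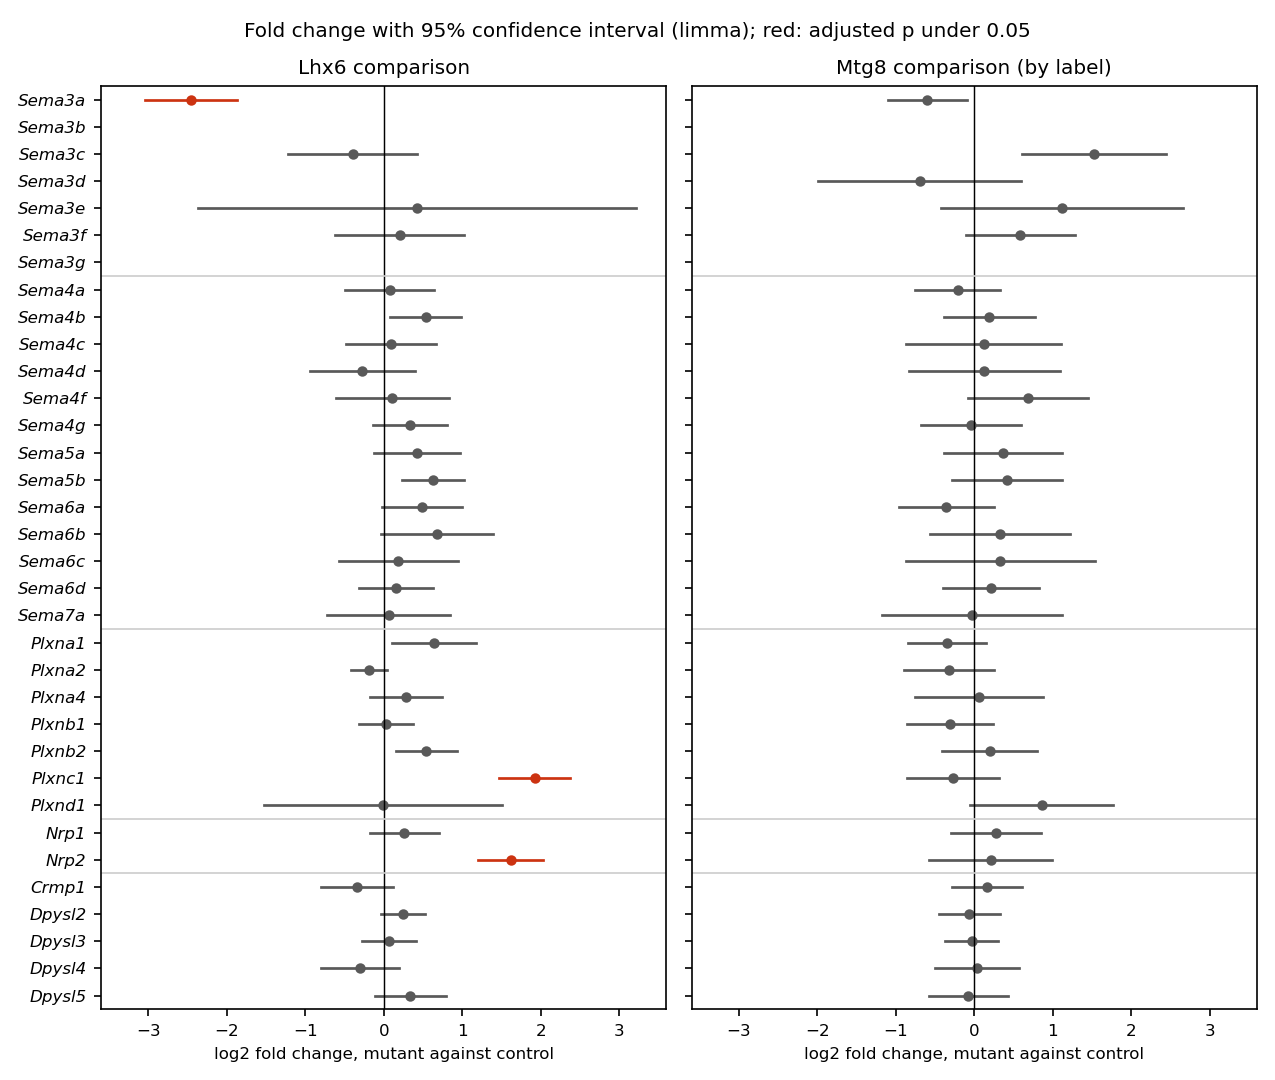
Log2 difference between mutant and control with its 95% confidence interval (limma) for each tested member, in the *Lhx6* comparison (left) and the *Mtg8* comparison (right), ordered by family, with red for an adjusted p under 0.05 and no point for members below the level filter. In the left panel 3 members are red, *Sema3a* to the left of 0 and *Plxnc1* and *Nrp2* to the right, and in the right panel none is.

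Markers of other cells moved with the *Lhx6* groups. The summed level of 7 measured markers of interneurons of the caudal ganglionic eminence was 3694 to 5831 in controls and 5901 to 12030.2 in mutants. These ranges did not overlap. Of those 7 genes limma called 2 lower (*Htr3a* and *Npas1*) and 0 higher, beside 0.682% and 1.03% of all genes. The rise of the sum thus lay in genes of the list that limma did not call. DESeq2 calls were not counted for the marker lists. The summed level of 10 measured markers of striatal or pallidal projection neurons was 905 to 1244 in controls and 1459 to 2886 in mutants, without overlap, with 0 of 8 tested called. *Foxp1* had the highest mean of that list (624.5 ± 118 over 4 controls and 1011 ± 163 over 5 mutants, mean ± SD). *Lhx8* (14.3 ± 8.7 and 63.2 ± 44), *Isl1* (66.0 ± 99 and 213 ± 419) and *Gbx1* (0.222 ± 0.44 and 8.41 ± 19) spread widely, and *Tac1* had the lower mean in mutants (74.2 ± 30 and 26.8 ± 53). Of the measured markers of both lists, 0 were at 0 in all libraries. The part of these shifts in the values of *Sema3a*, *Nrp2* and *Plxnc1* was not tested.

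The other genes of semaphorin signalling were taken from a list of 50 kinases, small GTPases and their regulators, actin effectors and co-receptors. Of 43 tested in the *Lhx6* comparison, 1 was called lower and 0 higher, beside 0.682% and 1.03% of all genes. That gene was *Chl1*, which encodes the close homolog of L1, an adhesion molecule that binds neuropilin 1 and takes part in SEMA3A responses. It lies at chr6:103510586-103750211 on the plus strand. Its normalized counts were 6367, 4512, 6325 and 4861 in controls and 1414, 1132, 1684, 1701 and 1511 in mutants. The groups were far apart, with a log2 difference of -1.89 (SE 0.16, adjusted p = 3.05e-05). It stayed past the threshold with name style as a covariate (-1.85, adjusted p = 0.0143), a fit in which mutant 6 is the only mutant set against the controls and its spread is taken from the other libraries. DESeq2 called 6 of the listed genes, *Chl1*, *Mical2* and *Nrcam* lower and *Cdk5r1*, *Gsk3b* and *Dyrk2* higher, beside 4.53% of all genes.

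In the *Mtg8* comparison 0 of 32 tested members were called by limma, beside 0.0% of all 16132 genes tested. Without labelled mutant 2, 4 genes were called lower and 83 higher, still with 0 members among them, and at an unadjusted p under 0.05 there were then 2 members lower and 3 higher, beside 1115 and 1151 of 16162 genes tested. With all libraries, 2 members had an unadjusted p under 0.05, *Sema3a* lower and *Sema3c* higher, beside 5.49% of all genes. DESeq2 called 0 members, beside 0.191% of all genes. Without labelled mutant 3, 1 member was lower and 5 higher at an unadjusted p under 0.05, beside 272 and 389 of 16131 genes tested. With name style as a covariate there were also 1 and 5, beside 289 and 505 of 16132 genes. The median log2 difference was 0.12 with all libraries, beside -0.013 over all genes, with 19 estimates above 0 and 13 below. The members' median was 1.9e-05 without labelled mutant 2, 0.20 without labelled mutant 3 and -0.040 without labelled mutant 4. Groups did not overlap for *Sema3c* and *Sema3f*, both higher, beside 4.68% of all genes, and for 0 members that were lower, beside 5.52%.

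*Sema3a* had 1482, 2099 and 2381 normalized counts in *Mtg8* controls 1, 2 and 4 and 1603, 1241 and 1073 in the libraries labelled mutant 2, 3 and 4. Labelled mutant 2 lay within the control range and the other two below it (log2 difference -0.60, SE 0.23, 95% confidence interval -1.10 to -0.10, adjusted p = 0.859). The mean of the labelled mutants was 65.7% of the control mean. *Sema3c* had 57.0, 154 and 65.5 in controls and 420.3, 191 and 174 in labelled mutants, all above the controls (log2 difference 1.52, SE 0.42, adjusted p = 0.783). Library names were dated for *Mtg8* controls 1 and 2 and labelled mutant 2 and undated for the rest. Within dated and undated names, the log2 differences were -0.14 and -1.04 for *Sema3a* and 2.15 and 1.46 for *Sema3c*. *Sema3f* had 53.7, 43.7 and 49.9 in controls and 72.5, 62.5 and 89.4 in labelled mutants (log2 difference 0.59, SE 0.32, adjusted p = 0.859).

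The receptors that rose in *Lhx6* mutants did not pass the test here. *Nrp2* had 398, 284 and 350.2 normalized counts in *Mtg8* controls and 499.6, 200.3 and 609 in labelled mutants, on both sides of the controls (log2 difference 0.21, SE 0.36, 95% confidence interval -0.57 to 0.99, adjusted p = 0.945). *Plxnc1* had 222, 273 and 198 in controls and 253, 153 and 176 in labelled mutants (log2 difference -0.27, SE 0.27, 95% confidence interval -0.86 to 0.32, adjusted p = 0.901). With any 1 library omitted the *Plxnc1* difference lay between -0.48 and -0.12. The intervals of the 2 genes stop short of the estimates in *Lhx6* mutants, but no test was made of one comparison against the other, as each table was normalized and fitted alone.

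*Nrp1* had 1175, 1162 and 751 normalized counts in *Mtg8* controls and 1630.1, 870.3 and 1285 in labelled mutants (log2 difference 0.28, SE 0.26, adjusted p = 0.900). *Nrp2* made up 16.8% to 27.8% of the 2 neuropilins per length in controls and 16.0% to 28.15% in labelled mutants. *Plxna4* had 504, 708 and 405 in controls and 1086, 342 and 437 in labelled mutants, and labelled mutant 2 stood highest (log2 difference 0.06, SE 0.37, adjusted p = 0.986).

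The remaining members with values in every library overlapped between the *Mtg8* groups. *Plxna1* had 1148, 1144 and 911 normalized counts in controls and 976, 624.9 and 942 in labelled mutants. *Plxnb2* had 854, 793 and 1071 in controls and 1255, 641 and 1359.9 in labelled mutants. *Sema5b* had 354, 218 and 284 in controls and 237, 378 and 580.2 in labelled mutants. *Sema4b* had 129, 137 and 127 in controls and 119, 159.9 and 174 in labelled mutants. The adjusted p was above 0.05 for each of the 4, and the 5 CRMPs had log2 differences between -0.077 and 0.16.

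**Figure D4:**
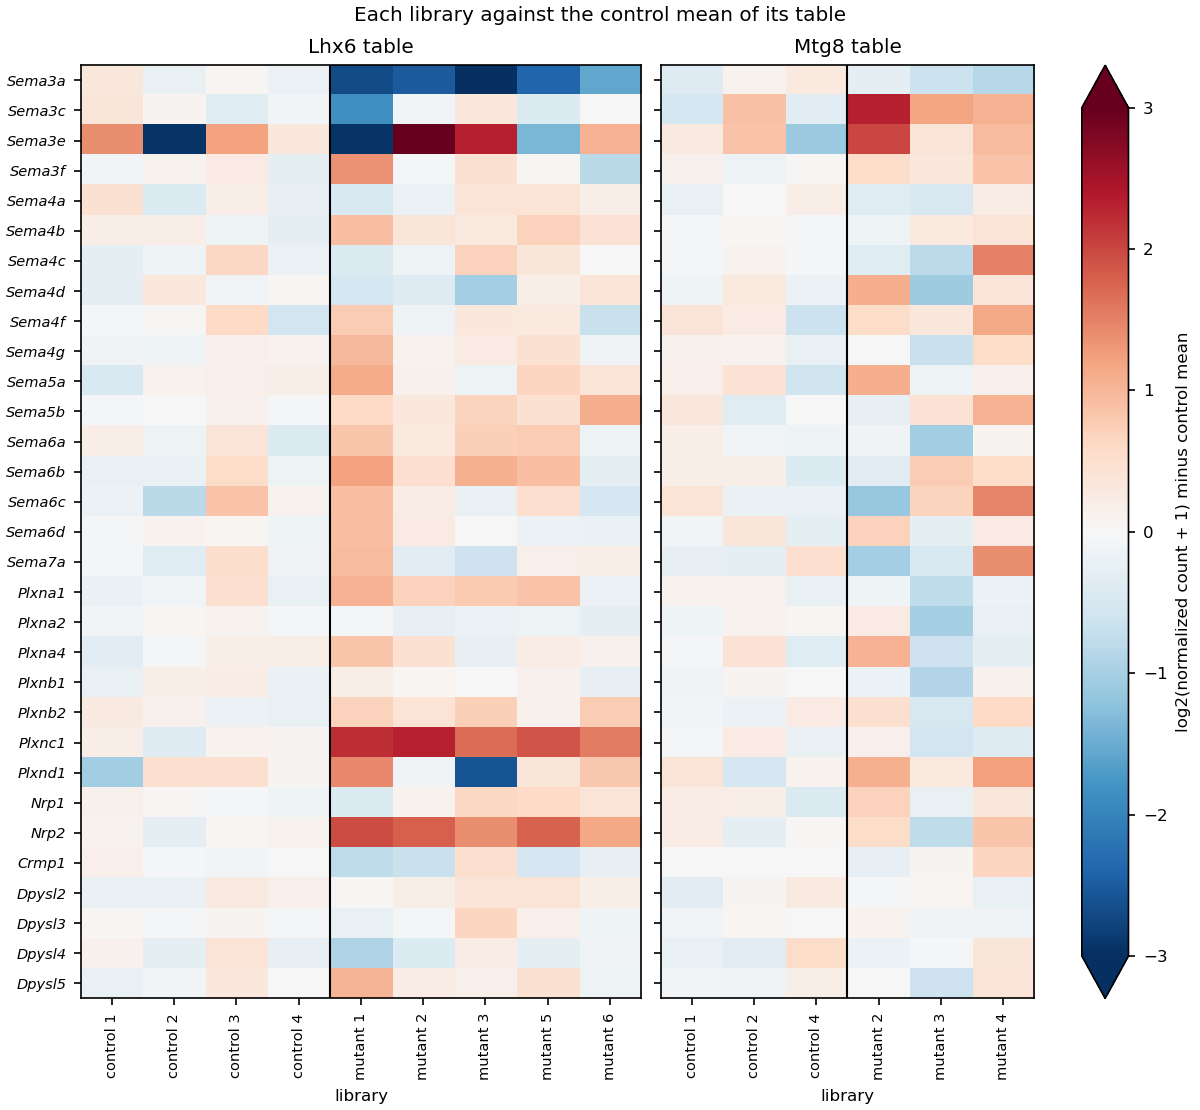
Log2(normalized count + 1) of each library minus the control mean of its table, for the members tested in both tables, with libraries in columns, controls left of the black line in each panel and colours ending at 3 on either side of 0. *Sema3a* is below, and *Plxnc1* and *Nrp2* above, the control mean in all 5 *Lhx6* mutants, while the labelled *Mtg8* mutants hold both signs for *Nrp2* and *Plxnc1*.

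Marker levels also moved with the *Mtg8* labels. The summed level of the 15 MGE markers was 70287 to 74774 in controls and 42099 to 60457 in labelled mutants, and that of 10 markers of cycling progenitors or radial glia was 7700 to 9066 and 9973 to 13989, neither with overlap, with 0 genes called in either list. The MGE list includes *Sst*, and a sum gives most weight to its highest genes, so it does not show a fall of every marker. The part of these shifts in the values of *Sema3a* and *Sema3c* was not tested. Of the 50 listed genes of the pathway, 44 were tested in this comparison and 0 were called by limma, 6 had an unadjusted p under 0.05, beside 5.49% of all genes, and DESeq2 called 0, beside 0.191%. *Chl1* had 13741, 15243 and 13496 normalized counts in controls and 13230.3, 6062 and 9183 in labelled mutants (log2 difference -0.65, SE 0.24, adjusted p = 0.859). With any 1 library omitted the *Chl1* difference lay between -0.92 and -0.36.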

How the data were processed

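RNA-seq reads of 75 bases from 15 sorted-cell libraries were trimmed with fastp 0.20.1, aligned with STAR 2.7b and counted per gene with featureCounts 1.6.4 by the authors. They filtered out sex-linked genes because, the paper states, the sexes were unevenly spread over control and mutant samples, which skewed the data. No fit here adjusts for sex. The values the authors deposited are a signal, each gene's count over the size factor that DESeq2 gave its library (the normalized count), in 1 table per comparison. Annotation is GENCODE on GRCm38.p6. All values were whole multiples of 1 read within 0.01 (100% of values), which gave the recovered reads, TPM and depth. The number of embryos sets the precision. The authors' own fold changes and p-values were not used.

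Each table was fitted alone with limma 3.58.1 (R 4.3.3, mean-variance trend, two-sided) on log2(normalized count + 1). Genes under a mean of 10 were left out. p-values were adjusted by Benjamini-Hochberg over all genes tested, with a threshold of 0.05. Fold changes of low genes are understated on this scale. Tried as alternatives were pseudocounts of 0.5 and 10, a minimum mean of 50, no filter, TMM, equal totals, no trend, DESeq2 1.42.0 and edgeR 4.0.16 on recovered reads, a replicate block, name style as a covariate, an adjusted p under 0.01 and each library left out. The fits were tested on simulated data. The members, the pathway list and the marker lists were chosen with earlier results of these data known. Values in every library are given for members with a p under 0.05, adjusted or not, in either table or called by DESeq2, and for *Nrp1*, *Nrp2*, *Sema3a*, *Sema3f* and *Plxna4*. Pathway genes are named where called. Libraries are single embryos, and promoters were read from RefSeq, in which 26 members have an entry.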

Additional observations from a re-analysis of the deposited data

Results flagged for a closer look

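In 68 groups of 4 or 5 *Lhx6* libraries, 1 per member and condition, the highest or lowest library was set against the others by Dixon's criterion, which chance alone meets in about 1 of 20 groups. It was met in 9. In 4 of these, those of *Sema3b* and *Sema3g*, the gene lay below the level filter and most libraries had few or no reads, so that this rate does not apply to them. *Lhx6* control 3 stood above the other controls for *Sema4c* (345 normalized counts, others 183 to 205), *Sema6b* (111, others 64.4 to 67.6), *Plxna1* (612, others 369 to 404) and *Sema3g* (2.76, others 0). *Lhx6* control 2 was the lowest control for *Nrp2* (225, others 284 to 294), control 1 for *Sema5a* (195, others 286 to 303) and control 4 for *Sema3b* (0.855, others 9.21 to 10.6). *Lhx6* mutant 3 was the highest mutant for *Sema3g* (17.7, others up to 4.84) and mutant 5 for *Sema3b* (6.78, others 0). *Nrp2* stayed called when control 2 was left out.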

How the results depend on the processing

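*Sema3a*, *Nrp2* and *Plxnc1* kept their direction and their call in the *Lhx6* comparison under 10 of 11 alternatives and with each library left out. The exception was name style as a covariate, with 0 of 31 members called and differences of -1.55, 1.16 and 1.54. That fit has 1 mutant library against 4 controls. Under it *Sema3c* (0.023), *Sema3f* (-0.82) and *Plxna1* (-0.17) changed sign. So did *Sema4c*, *Sema4d* (0.38), *Sema4f* (-0.66), *Sema4g*, *Sema6a* (-0.16), *Sema6b* (-0.30), *Sema6c*, *Sema6d*, *Plxnb1*, *Plxnd1*, *Dpysl3* and *Dpysl5*. With libraries left out, *Sema3f* ranged from -0.093 to 0.46, the lowest value without mutant 1.

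Called pathway genes in the *Lhx6* comparison numbered 1, but 2 with a pseudocount of 10 (*Mical2* added), 6 with DESeq2, and 1 to 4 with libraries left out: 2 without control 3, 2 without mutant 1 and 4 without mutant 6. Replicate numbers were not taken as pairing the embryos, since same-numbered *Lhx6* libraries correlated at -0.15, 0.0017 and 0.072 and the *Mtg8* labels share 2 numbers (0.14 and 0.16). The replicate block left 3 *Lhx6* members called, while all called genes went from 286 to 86. In the *Mtg8* comparison it took called members from 0 to 1 (*Sema3c*, 1.42, adjusted p = 0.0185), called pathway genes from 0 to 1 (*Cntn2*) and all called genes from 0 to 100, on 1 residual degree of freedom. In the *Mtg8* comparison some members changed sign with libraries left out, none of them called. Among them were *Plxna4* (-0.44 to 0.39), *Plxnb2* (-0.0031 to 0.54), *Nrp2* (-0.11 to 0.69) and *Crmp1* (-0.075 to 0.36). CRMPs held 88.0% and 88.7% of the summed reads when gene length was left out. Of the other 19 and 20 tested members, 15 and 12 changed sign under some alternative, and 0 of their 378 and 335 values were called.

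With 3 libraries a group the *Mtg8* intervals are wide, and members below a mean of 10 were left out of the tests reported. With no filter 0 of them were called, and *Sema3b* and *Sema3d* took the lower *Lhx6* members at an unadjusted p under 0.05 from 1 to 3 (adjusted p = 0.333 and 0.323), beside 1250 of 26835 genes.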
